A study of Rattus norvegicus with 4 samples.

Results

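Retinoic acid is the vitamin A derivative that cells make, destroy and sense through a small set of enzymes, carriers and nuclear receptors, and 10 genes of that set are described here in the telencephalon of homozygous Pax6 mutant and wild-type rats. They were taken by gene symbol, as all probe sets of the array that are annotated to Rarb, Rara, Rarg, Rxra, Rxrb, Aldh1a2, Aldh1a3, Cyp26b1, Dhrs3 or Rbp4 and to no other gene. This gave 12 probe sets for the 10 genes, of 20826 probe sets and 14217 genes with a single symbol. A probe set is a group of short oligonucleotides that together read 1 transcript, and Rarg and Cyp26b1 had 2 of them each. The telencephalon is the front of the embryonic forebrain, from which the cerebral cortex and basal ganglia form, and Pax6 encodes a paired-box transcription factor of its dorsal part.

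The Pax6 mutant arrays (n = 2) carried RNA of embryos homozygous for the rSey2 allele, and the WT arrays (n = 2) that of wild-type embryos. All embryos were Sprague-Dawley rats at E11.5, with the midday of the plug as E0.5. The labels name no further allele and no treatment in either group. The series' design names 13 telencephalons and a repeat per genotype, without saying whether each array had a pool of its own. From 10 µg of total RNA, cRNA was made and labelled with biotin for 1-colour Affymetrix arrays. Litters are not named, although the arrays are labelled as biological replicates, so each p-value reflects array-to-array spread that may be partly technical. The sources used here do not say where in the gene the rSey2 lesion lies, so the level of Pax6 cannot check the genotype labels. Pax6 read 11.78 and 11.63 in the Pax6 mutant arrays, against 11.75 and 11.85 in the WT arrays.

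Retinol reaches tissues bound to the plasma carrier Rbp4, is oxidised to retinaldehyde and then, by the retinaldehyde dehydrogenases of the Aldh1a family, to retinoic acid. Enzymes of the Cyp26 family break retinoic acid down, and the short-chain dehydrogenase Dhrs3 turns retinaldehyde back into retinol. Retinoic acid binds the receptors Rara, Rarb and Rarg, which pair with the retinoid X receptors Rxra, Rxrb or Rxrg on DNA and switch genes on when the ligand is bound. In the mouse, Rarb is itself induced by retinoic acid through a response element in its promoter, and the embryonic head receives retinoic acid from local sources of Aldh1a2 in mesenchyme and of Aldh1a3 in the eye and nasal region.

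The deposited values are on the log2 scale after GCRMA, a method that models background binding from the bases of each probe, brings the arrays to a common distribution and condenses a probe set into 1 value. Values therefore compare 1 probe set between arrays and do not rank different genes. A probe set counted as dim, and was not tested, where its 4-array mean was below 3.21, the 40th percentile of all 31042 probe sets without controls. Of the 12 retinoid probe sets, 8 were tested and 4 were dim. The 8 belong to Rarb, Rara, Rarg, Rxra, Rxrb, Aldh1a2 and Rbp4, and the dim ones to Aldh1a3, Cyp26b1 and Dhrs3. Differences below are Pax6 mutant minus WT on the log2 scale, with the standard error (SE) and 95% interval of limma's moderated fit over 18625 tested probe sets.

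Rarb, the receptor whose own transcription answers to retinoic acid, had the most negative difference between mutant and WT among the tested retinoid genes. Because the element behind that response is the best known binding site of these receptors, the Rarb sequence that holds it is shown, from RefSeq (build GRCr8, chr15:11336410-11336439, plus strand). The capitals mark both copies of a direct repeat.
Rarb: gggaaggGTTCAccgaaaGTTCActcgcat
The repeat spans bases 26 to 41 after the annotated start of the gene. It was found by searching both strands, from 250 bases before to 50 after each gene start, for GTTCA or GGTCA followed, after 6 further bases, by either of them again, a layout known as DR5. Of the 33469 gene starts in the RefSeq table, 0.601% held such a match. Of 11 starts of the 10 retinoid genes (Rarg has more than 1), only that of Rarb held it. The layouts with 3 or 2 bases in between (DR2 and DR1), present at 0.326% and 0.379% of all starts, were found at 0 of the 11. The same pair of letters cannot match more than 1 of these layouts. A match of letters is a description, and none of these arrays measures binding.

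Rarb read 6.95 and 7.33 in the Pax6 mutant arrays, against 8.52 and 8.02 in the WT arrays. Both mutant arrays lay below both WT arrays, and every pairing of a mutant with a WT array gave a difference between -1.57 and -0.69. The mean was 7.14 ± 0.27 in the Pax6 mutant and 8.27 ± 0.35 in WT (SD, n = 2 each). The difference of -1.13 (SE 0.26, 95% interval -1.90 to -0.35) equals a 2.18-fold lower GCRMA value. Over all tested probe sets, 48, Rarb included, had a difference as low as this or lower. The unadjusted limma p was 0.0182 and the Benjamini-Hochberg adjusted limma p was 1, so Rarb did not pass the test. With 1 array left out in turn, the difference ran from -1.38 to -0.88.

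No retinoid probe set passed an adjusted p of 0.05 in limma, and neither did any other: 0% of the 18625 were called, with 0.196 as the lowest adjusted p and 680 at an unadjusted p under 0.05. Rarb was the 1 retinoid probe set of 8 with an unadjusted p under 0.05. In either direction, 680 of the 18625 tested probe sets and 3.59% of named genes had such a p. The tested probe sets with such a p that were lower in the mutant made up 1.91%. For 2 arrays against 2, the smallest two-sided p of an exact permutation test is 0.333.

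The other retinoic acid receptors read slightly lower in the mutant, by far less than Rarb. Rara, a widely expressed receptor, read 6.21 and 6.55 in the Pax6 mutant arrays, against 6.72 and 6.68 in the WT arrays. Its groups did not overlap, with a difference of -0.32 (SE 0.15, 95% interval -0.77 to 0.13). The distance rested on the lower mutant array: without Pax6 mutant replicate 1 the difference was -0.15.

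Rarg, the receptor best known from skin and skeletal tissue, was read by a pair of probe sets. The brighter read 6.11 and 6.21 in the Pax6 mutant arrays, against 6.23 and 6.49 in the WT arrays. The other read 5.84 and 5.97 in the Pax6 mutant arrays, against 5.97 and 6.40 in the WT arrays. Both probe sets ran the same way, with differences of -0.20 (SE 0.13, 95% interval -0.59 to 0.19) and -0.28 (SE 0.19, 95% interval -0.86 to 0.29). Their groups nearly touched, and each difference was -0.07 without WT replicate 2. Over the 4 probe sets of Rara, Rarb and Rarg, all 4 differences were negative under every alternative in which they were tested, also with any 1 array left out, and 0 passed the test.

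The retinoid X receptors, obligate partners of these receptors and of several other nuclear receptors, did not separate by genotype. Rxrb read 5.69 and 6.15 in the Pax6 mutant arrays, against 5.86 and 6.28 in the WT arrays. In both genotypes replicate 1 was the lower array, by a distance larger than that between genotypes. Its difference was -0.15 (SE 0.25, 95% interval -0.92 to 0.62), but 0.06 without WT replicate 2 and 0.07 without Pax6 mutant replicate 1. Rxra read 3.76 and 3.69 in the Pax6 mutant arrays, against 3.33 and 3.69 in the WT arrays, close to the dim level. Its difference of 0.21 (SE 0.16, 95% interval -0.27 to 0.69) came from WT replicate 1, and was 0.04 without that array.

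Counted together, 3 of the 8 tested retinoid probe sets had both mutant arrays below both WT arrays by at least 0.01, namely Rarb, Rara and the brighter one of Rarg. The same held for 10.3% of all tested probe sets. The opposite layout, also at 10.3% of all tested probe sets, was seen in 0 of the 8. By gene, with the brightest probe set for each, 4 of 7 had negative and 3 had positive differences; their median was -0.15, against 0.00 over 9840 named genes. That median was 0.06 without WT replicate 2 and 0.07 without Pax6 mutant replicate 1, so its sign rested on single arrays. Since the 10 genes were chosen with results of these arrays known, no test over the list was made.

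**Figure D1:**
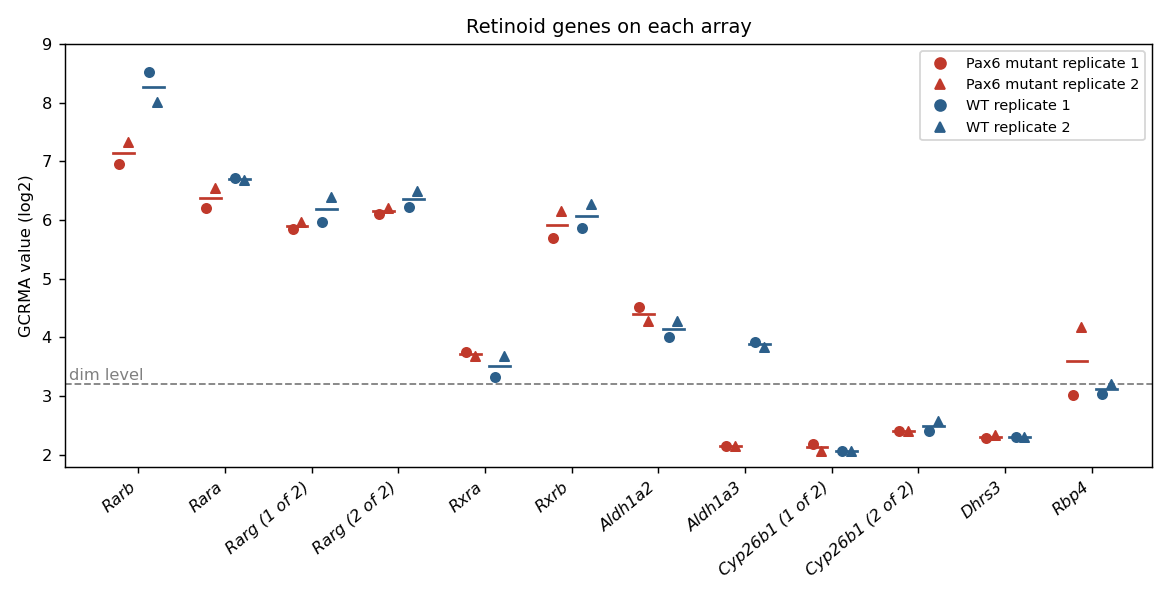
GCRMA value (log2) of each retinoid probe set on each array, with Pax6 mutant arrays in red and WT arrays in blue; circles are replicate 1, triangles replicate 2 and bars the mean of n = 2. The mutant points of Rarb (6.95 and 7.33) lie below the WT points (8.52 and 8.02), and those of Aldh1a3 (2.15 on both arrays) lie under the dashed dim level of 3.21 while its WT points (3.93 and 3.84) lie above it.

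Among the enzymes that make retinoic acid, Aldh1a3 showed the widest gap between genotypes. It read 2.15 on both Pax6 mutant arrays, against 3.93 and 3.84 in the WT arrays. The mutant values lay near the lowest value in the table, 2.07, and the WT values lay above the dim level. The difference was -1.73, with every pairing between -1.77 and -1.68. Its mean over the 4 arrays was 3.02, so it was dim and had no test under the reported filter. With no filter on dim probe sets its unadjusted limma p was 0.000172 and its adjusted limma p 0.494, which did not pass. With a pseudocount of 16 added on the linear scale the difference was -0.59, so its size depends on how low values are treated. The mutant values were identical to the 4 decimals deposited. Identical values on at least 2 arrays occurred in 92.7% of dim and 11.7% of tested probe sets, so the absence of spread in the mutant is no measure of precision.

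Aldh1a2, the main source of retinoic acid in the early embryo of the mouse, showed no such gap. It read 4.52 and 4.28 in the Pax6 mutant arrays, against 4.01 and 4.28 in the WT arrays. The higher WT array equalled the lower mutant array, and the difference of 0.25 (SE 0.16, 95% interval -0.22 to 0.73) did not pass. Aldh1a1, the further family member on the array, was not among the 10 genes and was looked at after its values were seen. It was dim, at 2.29 and 2.12 in the Pax6 mutant arrays, against 3.57 and 2.93 in the WT arrays, a difference of -1.05. No test of the difference between these enzymes was made.

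Breakdown through Cyp26b1 and back-conversion through Dhrs3 could not be followed on these arrays. The probe sets of Cyp26b1, a retinoic acid hydroxylase, were both dim. The first read 2.19 and 2.07 in the Pax6 mutant arrays, against 2.07 and 2.07 in the WT arrays, and 3 of these 4 values were the lowest in the table. The other read 2.40 and 2.40 in the Pax6 mutant arrays, against 2.40 and 2.57 in the WT arrays. Dhrs3 read 2.29 and 2.33 in the Pax6 mutant arrays, against 2.30 and 2.30 in the WT arrays. At such values a difference is not detectable, and the arrays do not show whether these transcripts were present.

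Rbp4, the retinol carrier of plasma, lay just above the dim level through a single array. It read 3.02 and 4.17 in the Pax6 mutant arrays, against 3.03 and 3.21 in the WT arrays. Only Pax6 mutant replicate 2 stood apart. The difference of 0.47 (SE 0.46, 95% interval -0.92 to 1.87) was -0.10 without that array and 1.05 without Pax6 mutant replicate 1. By its 4-array mean, transthyretin (Ttr), which travels with Rbp4 in plasma, was dim, and so were all 13 measured markers of yolk sac and visceral endoderm. Among these, Afp read 2.07 and 3.31 in the Pax6 mutant arrays, against 2.07 and 2.07 in the WT arrays. Its 3.31 lay above the dim level, on the array where Rbp4 stood apart. With no filter, 7 of the 13 were higher and 0 lower in the mutant, with a median of 0.00. Apart from Afp, the highest of these differences was 0.09 (Apob), at values too low for a difference to be detected, so the count gives no direction. The part of yolk sac and visceral endoderm in the Rbp4 value was not tested.

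**Figure D2:**
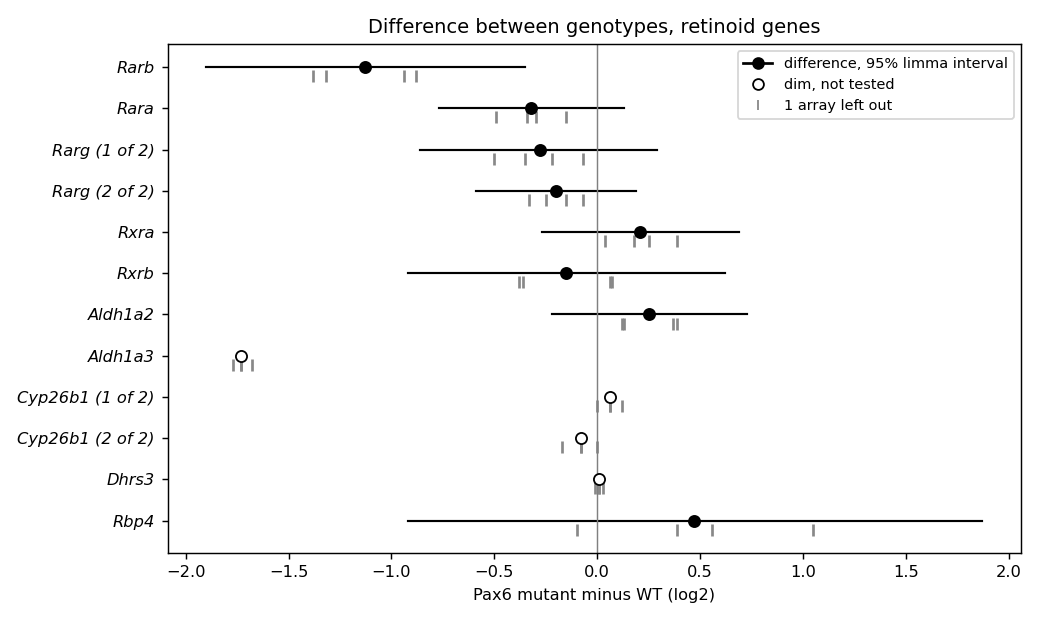
Pax6 mutant minus WT (log2) for each retinoid probe set; filled points with a line are tested probe sets with their 95% limma interval, open points are dim and untested, and grey ticks give the difference with 1 array left out. The interval of Rarb (-1.90 to -0.35) lies wholly below 0 before any adjustment, and the intervals of the other 7 tested probe sets include 0.

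The rest of the retinoid pathway was described from a list of 35 further enzymes, carriers and binding proteins, of which 28 were analysed here, 15 were dim and 13 were tested. None passed the adjusted test (0 of 13) or had an unadjusted p under 0.05, against 3.59% of all named genes. In the mutant, 10 of the 13 were lower and 3 were higher, with a median of -0.03 and a range from -0.26 to 0.35. The split rested on single arrays: leaving out WT replicate 2 gave 7 negative and 6 positive differences and a median of 0.00. Both mutant arrays lay below both WT arrays for 2 of 13, against 10.5% of named genes, and above for 0, against 11.2%.

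The cytosolic retinoic acid binding proteins were bright and nearly equal. Crabp1 read 13.10 and 12.85 in the Pax6 mutant arrays, against 13.03 and 12.98 in the WT arrays. Crabp2, which delivers retinoic acid to the receptors, read 14.08 and 13.94 in the Pax6 mutant arrays, against 14.04 and 14.04 in the WT arrays. Both differences were -0.03, with 95% intervals of -0.40 to 0.33 for Crabp1 and -0.29 to 0.23 for Crabp2; both genes were named for their role after their values were seen.

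Upstream steps were measured through several genes. Stra6, the cell-surface receptor for the retinol carrier, read 9.73 and 9.34 in the Pax6 mutant arrays, against 9.66 and 9.03 in the WT arrays. Rdh10, which makes retinaldehyde in the embryo, read 7.50 and 7.57 in the Pax6 mutant arrays, against 7.14 and 7.82 in the WT arrays. In both genes the genotypes overlapped, with differences of 0.19 (SE 0.29) and 0.06 (SE 0.27). Both changed sign with an array left out, to -0.12 for Stra6 without WT replicate 2 and -0.28 for Rdh10 without WT replicate 1. The reductases Rdh14 and Dhrs4 differed by -0.26 (SE 0.20) and -0.20 (SE 0.13), and the retinaldehyde-binding protein Rlbp1 by -0.25 (SE 0.20). These too rested on single arrays. Rdh14 was at -0.03 without Pax6 mutant replicate 2, and Dhrs4 at -0.07 without WT replicate 2. Rlbp1 read 3.22 and 3.22 in the Pax6 mutant arrays, against 3.22 and 3.71 in the WT arrays, close to the dim level. Without WT replicate 2 its difference was 0.00.

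Cyp26a1, the other retinoic acid hydroxylase on the array and in many tissues a gene induced by retinoic acid, showed the highest difference of the pathway list. It read 4.83 and 4.28 in the Pax6 mutant arrays, against 4.28 and 4.13 in the WT arrays. The lower mutant array equalled the higher WT array, and the difference of 0.35 (SE 0.23, 95% interval -0.36 to 1.06) ran opposite to that of Rarb. Without Pax6 mutant replicate 1 it was 0.07. Neither gene passed the test.

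Other genes known to answer to retinoic acid in embryos gave no common direction with Rarb. Of a list of 30, 19 were analysed here and 12 were tested. In the mutant 8 were higher and 4 lower, with a median of 0.06 and a range from -0.12 to 0.35. None (0 of 12) passed or had an unadjusted limma p under 0.05. The lists share genes, so their counts are not separate. Cyp26a1, at the upper end of this range, Crabp2 and Stra6 are also in the pathway list, and Nrip1 is also in the cofactor list below. The 5 Hox and Cdx genes measured, which mark the hindbrain and trunk, were dim in all 4 arrays. Meis2, a homeobox gene of the ventral and lateral telencephalon, read 10.35 and 10.19 in the Pax6 mutant arrays, against 10.16 and 9.78 in the WT arrays (difference 0.30, SE 0.17, and 0.11 without WT replicate 2). The orphan receptors Nr2f2 and Nr2f1 differed by -0.12 (SE 0.13) and -0.06 (SE 0.24).

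Most of the proteins that receptors recruit had positive differences, but their count rested on single arrays. Of 18 coactivators and corepressors, 16 were tested; 14 were higher and 2 lower, with a median of 0.10, and both mutant arrays lay above both WT arrays for 6, against 11.2% of named genes. Without Pax6 mutant replicate 2 the split was 10 higher and 6 lower, and without WT replicate 1 it was 11 higher and 5 lower. The median stayed positive under every scaling and with any 1 array left out, where it ran from 0.12 to 0.22 (without Pax6 mutant replicate 1), and 0 passed the test. The corepressor Ncor1 read 10.61 and 10.87 in the Pax6 mutant arrays, against 10.40 and 10.44 in the WT arrays (difference 0.32, SE 0.12). The acetyltransferase Ep300 differed by 0.29 (SE 0.18). On the other side, the corepressor subunits Tbl1xr1 and Tbl1x differed by -0.20 (SE 0.27) and -0.01 (SE 0.23).

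**Figure D3:**
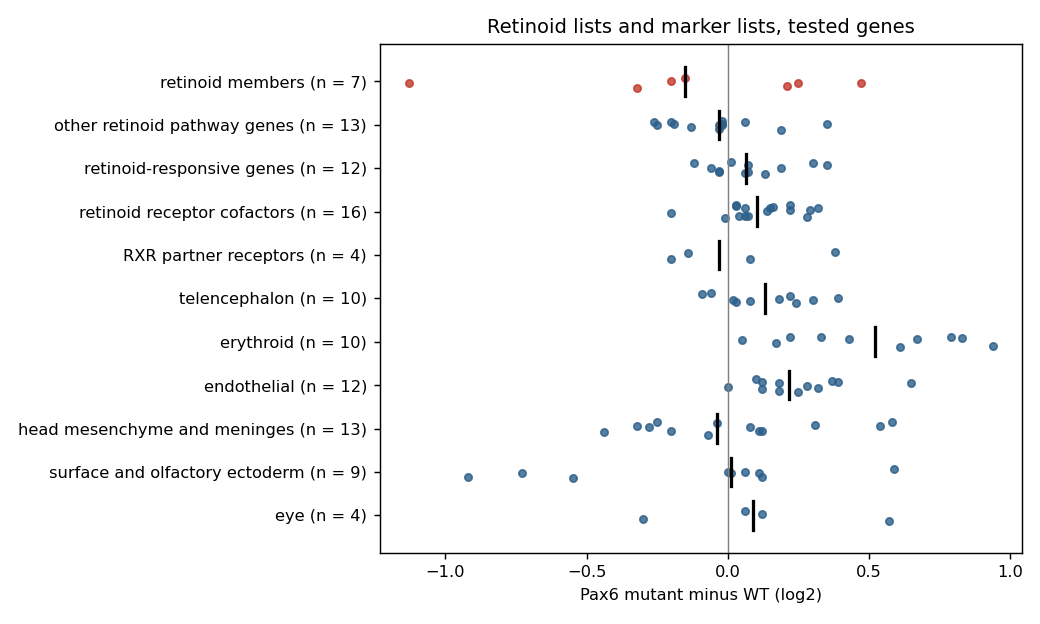
Pax6 mutant minus WT (log2) of each tested gene, by list, with the brightest probe set for each gene; black bars are medians, the 7 tested retinoid genes are in red and n is the number of tested genes. Rarb at -1.13 lies below every other point, while medians run from -0.15 for the retinoid genes to 0.52 for erythroid markers.

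The tissue and its neighbours were checked with marker lists. The forebrain and neural progenitor markers were present, with 10 of 11 measured genes tested. In the mutant 8 were higher and 2 lower, with a median of 0.13, and both mutant arrays lay above both WT arrays for 4 of 10, against 11.2% of named genes. The linear level summed over all measured genes of the list, as for the lists that follow, was 35952 and 33006 in the Pax6 mutant arrays, against 29466 and 29397 in the WT arrays. Such a sum mostly follows the brightest probe sets and does not stand for each gene of its list. In the erythroid list, Hbe1 alone read 15.40 and 15.41 in the Pax6 mutant arrays, against 15.22 and 15.16 in the WT arrays. Without WT replicate 1, 5 of the 10 forebrain and neural progenitor markers were higher and 5 lower, with a median of 0.00. Their part in the retinoid differences was not tested. Among them Pou3f3 and Lhx2 differed by 0.39 (SE 0.11) and 0.30 (SE 0.10), and Emx2 and Hes1 by -0.09 (SE 0.07) and -0.06 (SE 0.08). Retinoid enzymes are also made by tissues next to the telencephalon, so their markers are given beside the results above. In tissue RNA, fewer cells of a type and less RNA per cell cannot be told apart.

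Surface and olfactory ectoderm markers, from the region where Aldh1a3 is made in the mouse, had 5 of 9 tested genes higher and 3 lower, with a median of 0.01. Of the higher genes, Krt19, Grhl3, Dlx3 and Eya1 differed little, by 0.06, 0.12, 0.01 and 0.11. Their summed linear level was 1101 and 1112 in the Pax6 mutant arrays, against 1203 and 1021 in the WT arrays. Epcam, an epithelial adhesion protein, read 5.48 and 5.16 in the Pax6 mutant arrays, against 6.57 and 5.90 in the WT arrays (difference -0.92, SE 0.30). The simple-epithelial keratin Krt18 read 6.76 and 6.81 in the Pax6 mutant arrays, against 7.60 and 7.42 in the WT arrays (difference -0.73, SE 0.10). The remaining lower gene, Krt8, read 3.54 and 4.58 in the Pax6 mutant arrays, against 4.51 and 4.71 in the WT arrays. Its difference was -0.55 (SE 0.42), but -0.03 without Pax6 mutant replicate 1. Krt5 and Krt14 were dim, and the remaining higher gene, Cdh1, differed by 0.59 (SE 0.14). The genes of this list other than Epcam and Krt18 were named after their values were seen. None passed the adjusted test, and the part of such cells in the low Aldh1a3 values of the mutant was not tested.

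Head mesenchyme and meninges markers, from tissue where Aldh1a2 is made in the mouse, were higher in 6 and lower in 7 of 13 tested genes, with a median of -0.04. Their summed linear level was 8198 and 9565 in the Pax6 mutant arrays, against 9824 and 9565 in the WT arrays. Both mutant arrays lay below both WT arrays for 3 of 13, against 10.5% of named genes, and above for 2, against 11.2%. The largest differences were positive. Prrx2 differed by 0.58 (SE 0.14) and Foxc2 by 0.54 (SE 0.45), but Foxc2 by -0.02 without Pax6 mutant replicate 2. The 3 genes below, named after their values were seen, were Pdgfra at -0.44 (SE 0.21), Alx1 at -0.28 (SE 0.14) and Col3a1 at -0.25 (SE 0.09). Dcn, Foxd3 and Sox10 were dim. Without Pax6 mutant replicate 2 the list had 4 higher and 9 lower, with a median of -0.20.

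Blood and vessel markers mostly had positive differences. Each of the 10 tested erythroid genes read higher in the mutant, with a median of 0.52 and a summed linear level of 46294 and 46535 in the Pax6 mutant arrays, against 40159 and 38938 in the WT arrays. The median was 0.30 without WT replicate 1, and without Pax6 mutant replicate 1 Hbb, a globin gene, was at -0.27. Slc4a1 and Hemgn differed by 0.94 (SE 0.32) and 0.83 (SE 0.08). All 12 endothelial genes were at or above their WT level, with a median of 0.22 and a summed linear level of 4390 and 5080 in the Pax6 mutant arrays, against 3933 and 4010 in the WT arrays. Without Pax6 mutant replicate 2, 8 endothelial genes were higher and 4 lower, with a median of 0.10, and without WT replicate 1, 9 were higher and 3 lower. Plvap and Sox18 differed by 0.65 (SE 0.18) and 0.39 (SE 0.11). None of these genes passed the adjusted test, and the part of blood and vessels in the retinoid differences was not tested.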

How the data were processed

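RNA of Pax6 mutant and WT telencephalon (2 arrays each) was measured on 1-colour Affymetrix rat arrays. Per the submitters' processing notes, the authors made the deposited log2 values with GCRMA, whose version is not given in the sources used here. That the scale is log2 was inferred from the range of 2.07 to 16.13. The lowest value was shared by 5333 to 5462 probe sets on each array. Precision is limited by the number of arrays, which carry no read depth. The table has 31099 probe sets, of which 57 are controls and were not used. Symbols came from GEO's platform annotation: 20826 probe sets had 1 symbol, 436 several and 9780 none, and 0 symbols changed through Entrez identifiers.

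Probe sets under the 40th percentile of the mean (12417) were left out as dim. Genotype was the only term of a limma fit (lmFit and eBayes, version 3.58.1 under R 4.3.3), with Benjamini-Hochberg adjustment over 18625 probe sets and a threshold of 0.05. The fit was also run on simulated data with the same spread for every probe set. Measured probe sets differ in spread, so that run checks the code and not the power or error rate in these data. Differences are for 2 arrays per genotype. A gap of at least 0.01 counted as no overlap, a tolerance set after seeing the data. Genes outside the 10 were named by size of difference, up to 3 per direction in the pathway list, 2 per direction in the other retinoid and telencephalon lists and 2 per list of other cells. The genes and lists were chosen with earlier results of these data known. Alternatives were other filters, a pseudocount of 16, quantile normalization, median centring, a replicate block and leaving out each array.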

Additional observations from a re-analysis of the deposited data

How the results depend on the processing

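Against 0 probe sets past the adjusted limma threshold (680 at an unadjusted p under 0.05), 1 was called with a stricter filter at the 60th percentile, 2 after quantile normalization, 2 after median centring and 2 without probe sets of zero variance, the last a choice made after seeing the data. All were lower in the mutant and 0 were retinoid probe sets; with each array left out in turn the count ran from 0 to 0. The adjusted p of Rarb ran from 0.73 to 1, and its difference kept its sign in every alternative, from -1.38 to -0.88. The stricter filter left Rarb as the 1 tested retinoid gene, so the median over retinoid genes became -1.13. With 1 array left out that median ran from -0.30 to 0.07, and that of the other retinoid pathway genes from -0.11 to 0.00. With 1 array left out, Rxrb ran from -0.38 to 0.07, with 0.06 without WT replicate 2 and 0.07 without Pax6 mutant replicate 1. Rbp4 ran from -0.10 without Pax6 mutant replicate 2 to 1.05; the cause was not tested. A fit with 1 array in a genotype assumes that it varies like the other. With the replicate number as a block, 0 probe sets were called (lowest adjusted p = 0.736) and Rarb had an unadjusted limma p of 0.0534. Over tested probe sets, the difference between replicate 1 and 2 correlated at 0.43 between Pax6 mutant and WT; with 2 numbers this does not show that the numbers pair the samples. Dim signal limits Aldh1a3, Cyp26b1 and Dhrs3, and nearly so Rxra and Rbp4.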

Other observations

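Several nuclear receptors share the retinoid X receptors as partners, and most of them were dim in this tissue. Of 13 measured, 9 were dim, among them the vitamin D receptor Vdr and the PPARs Ppara and Pparg. Of the 4 tested, 2 were higher and 2 lower in the mutant, with a median of -0.03. Nr4a2, an orphan receptor best known from dopamine neurons, read 6.03 and 6.51 in the Pax6 mutant arrays, against 5.86 and 5.92 in the WT arrays (difference 0.38, SE 0.20, and 0.14 without Pax6 mutant replicate 2). The liver X receptor Nr1h3 differed by 0.08 (SE 0.10). The liver X receptor Nr1h2 and Ppard differed by -0.20 (SE 0.24) and -0.14 (SE 0.14). None passed the adjusted limma test.

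Eye markers were measured because the eye is another source of retinoic acid in the mouse. Of 11 on the array, 7 were dim and 4 were tested. The eye-field gene Rax read 8.98 and 9.01 in the Pax6 mutant arrays, against 8.17 and 8.68 in the WT arrays (difference 0.57, SE 0.21, and 0.31 without WT replicate 1). Mitf, a factor of pigmented epithelium, read 5.75 and 5.85 in the Pax6 mutant arrays, against 6.33 and 5.85 in the WT arrays (difference -0.30, SE 0.21, and -0.05 without WT replicate 1). The linear level summed over the 11 eye markers was 1007 and 962 in the Pax6 mutant arrays, against 730 and 914 in the WT arrays. None passed the adjusted limma test.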
